A study of Homo sapiens with 8 samples.

Results

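The 9 genes described here encode the protease-activated receptors F2R, F2RL1, F2RL2 and F2RL3, the coagulation initiator F3, its inhibitor TFPI with the related TFPI2, and PROCR and THBD, the receptors of the protein C pathway. They were chosen by gene name, and all 9 were found in both deposited tables, among the 16383 genes that each table lists. The family was picked with earlier results of these data known, in which F2RL3 stood among the lowest fold changes, so the difference between treatments is a description for each of the 9. The calls of a fit across all genes are given once, as counts beside the share of all genes, and support nothing here. The cells were MDA-MB-231, an established line from a human breast cancer. They were given 5 µM c-di-GMP, a bacterial signalling dinucleotide, for 24 h (4 libraries), or the vehicle, phosphate-buffered saline, for 24 h (4 libraries). The labels give no other agent for either group. The labels name no separate cultures, so that all spreads and p-values are between these libraries and may be technical.

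Protease-activated receptors are G protein-coupled receptors that carry their own ligand. A protease cuts the outer end of the receptor, and the new end folds back and switches the receptor on. Thrombin cuts F2R (PAR1), F2RL2 (PAR3) and F2RL3 (PAR4), whereas trypsin, tryptase and the complex of tissue factor with factor VIIa cut F2RL1 (PAR2). Tissue factor, the product of F3, is the membrane protein that starts coagulation, and breast cancer cells are known to carry it. TFPI blocks that start, TFPI2 inhibits trypsin and plasmin, thrombomodulin (THBD) turns thrombin towards the activation of protein C, and the receptor encoded by PROCR holds protein C at the membrane.

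The libraries held 16151360 to 18040010 counts, so that 3 counts, a floor that covers counting error only, corresponded to 0.166 to 0.186 CPM, counts scaled to a library of a fixed size. Vehicle replicate 3 stood apart: the longest 25% of genes took 19.0% of its counts, against 34.6% to 36.5% in the other 7 libraries. The total that its FPKM (fragments scaled to transcript length and library size) were divided by was smaller than its own count, which came to 146% of it, against 92.4% to 94.4% elsewhere. It is therefore shown apart below, and each difference between treatments of the 9 genes is given with all 8 libraries and with the 7 that leave it out. Marker levels in this report are CPM by library totals alone, without the TMM scaling between libraries that the CPM of the 9 genes carry. These scales differ most in vehicle replicate 3, where CPM by totals are the lower. All 8 mesenchymal markers examined were in the count table, with a summed level of 4508 to 4616 CPM with c-di-GMP. The sum was 4557 to 4568 CPM in vehicle replicates 1, 2 and 4 and 2784 CPM in vehicle replicate 3. CDH2 and SPARC added little, at 0.637 to 1.24 and 0.678 to 1.03 CPM with c-di-GMP. In vehicle replicates 1, 2 and 4 they stood at 0.618 to 1.22 and 0.173 to 0.730 CPM. Single markers differed in opposite directions in vehicle replicate 3. It had VIM at 1458 CPM, where replicates 1, 2 and 4 had 638 to 677. Its MSN was 153 CPM, where those replicates had 1085 to 1132. Of 8 megakaryocyte and platelet markers, cells in which F2RL3 is best known, GP1BA was listed, at 0.904 to 1.94 CPM with c-di-GMP and 0.633 to 1.85 CPM in vehicle replicates 1, 2 and 4. The 3 of 8 leukocyte markers listed summed to 13.6 to 17.3 CPM with c-di-GMP and 16.9 to 21.6 CPM in the same vehicle libraries. The 7 of 10 luminal breast markers listed summed to 1425 to 1459 CPM and 1475 to 1570 CPM, with ESR1, PGR and FOXA1 not listed. Most of the luminal sum was KRT8, KRT18 and KRT19. In vehicle replicate 3 the luminal sum was 2512 CPM, with KRT19 at 939 CPM, where replicates 1, 2 and 4 had 363 to 410. ERBB2 and CDH1 were lower there than in those replicates, at 47.1 and 1.07 CPM.

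Tissue factor was by far the highest of the 9 transcripts per unit of length, and F2RL3 was the lowest. F3 was deposited at 196 ± 1.82 FPKM (SD, n = 4) with c-di-GMP and 184 ± 4.30 FPKM (SD, n = 3) in vehicle replicates 1, 2 and 4. F2RL1 followed at 70.7 ± 1.74 FPKM (SD, n = 4) with c-di-GMP and 69.6 ± 2.68 FPKM (SD, n = 3) with vehicle, so that F3 stood at 2.72 times F2RL1 over the 7 libraries. After these came THBD, TFPI2, F2R, PROCR, TFPI, F2RL2 and F2RL3. Over the 7 libraries the lowest value of a gene was above the highest of the next for all neighbours but THBD and TFPI2. In c-di-GMP libraries THBD ran from 36.7 to 38.1 FPKM and TFPI2 from 36.7 to 38.6 FPKM, which overlapped, whereas in vehicle libraries THBD ran from 43.7 to 47.6 FPKM and TFPI2 from 31.1 to 35.0 FPKM, which did not. With vehicle replicate 3 included the ranges of PROCR and TFPI overlapped as well, since TFPI stood at 14.0 FPKM there. The order was the same when CPM values were divided by the length of the longest transcript, which matters most for TFPI, whose combined exons span 11714 bases and whose longest transcript spans 7690.

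**Figure D1:**
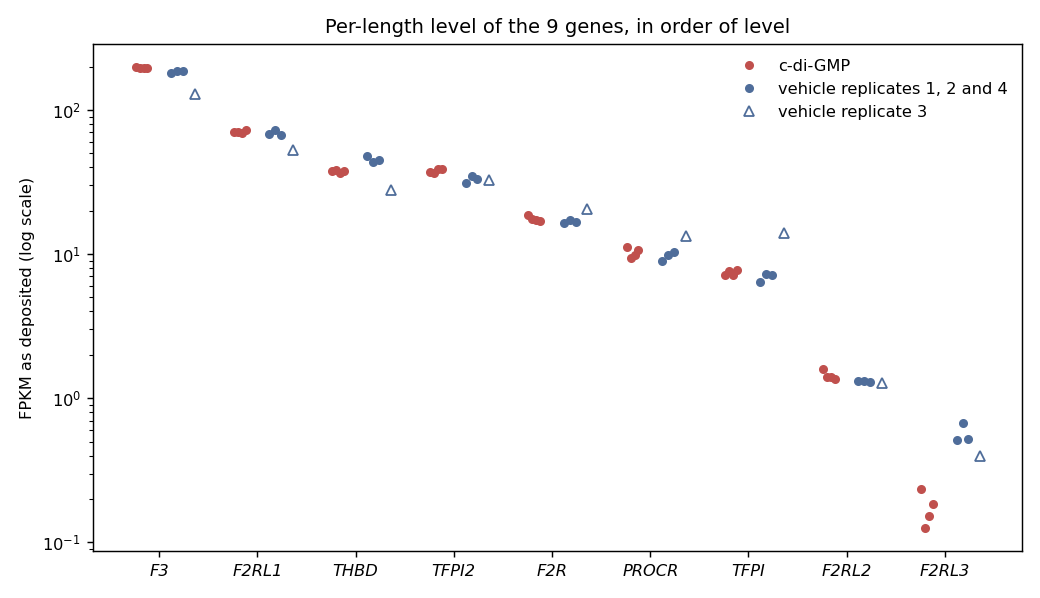
Deposited FPKM of the 9 genes by library on a log scale, in order of the mean of 7 libraries, with c-di-GMP libraries in red to the left, vehicle replicates 1, 2 and 4 in blue and vehicle replicate 3 as an open triangle. F3 lies between 179 and 199 FPKM in 7 libraries and F2RL3 below 1 FPKM, and the c-di-GMP points of THBD and TFPI2 lie at the same height while their vehicle points are apart.

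Among the 4 receptors, F2RL1 made up most of the summed FPKM, with 77.6% to 79.7% in c-di-GMP libraries and 78.4% to 79.0% in vehicle replicates 1, 2 and 4. F2R made up 18.6% to 20.4% with c-di-GMP and 18.8% to 19.5% in the same vehicle libraries. In vehicle replicate 3 the shares were 70.4% for F2RL1 and 27.4% for F2R. F2RL2 took 1.48% to 1.74% with c-di-GMP and 1.44% to 1.53% with vehicle, and F2RL3 took 0.141% to 0.259% with c-di-GMP, against 0.595% to 0.727% in vehicle replicates 1, 2 and 4 and 0.532% in vehicle replicate 3. PAR2 was thus the main receptor transcript of these cells in every library, and PAR4 the rarest.

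F2RL3 was lower in every c-di-GMP library than in any vehicle library, vehicle replicate 3 included. The gene (ENSG00000127533) lies on chromosome 19, 16888860 to 16892606 on the plus strand of GRCh38, with 2 exons. It had 14, 8, 10 and 12 counts in c-di-GMP replicates 1 to 4, against 34, 45, 16 and 34 counts in vehicle replicates 1 to 4. Scaled over all 8 libraries these were 0.819, 0.437, 0.534 and 0.644 CPM with c-di-GMP, against 1.82, 2.35, 1.43 and 1.83 CPM with vehicle. The lowest vehicle value, that of replicate 3, was still above the highest c-di-GMP value. The log2 fold change was -1.61 ± 0.26 (SE) with all 8 libraries and -1.72 ± 0.27 with 7, a change of -69.6% with an approximate 95% interval from -78.8% to -56.3%. The transcript is rare, with 44 counts over the 4 c-di-GMP libraries and 129 over the 4 vehicle libraries.

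The F2RL3 difference also appeared as a ratio of counts within each library, which uses no scaling. Per 1000 counts of F2RL1 there were 3.91, 2.10, 2.62 and 2.97 counts of F2RL3 in c-di-GMP replicates 1 to 4, against 8.85, 10.8, 8.88 and 9.04 in vehicle replicates 1 to 4. By this measure vehicle replicate 3 stood with the other vehicle libraries. F2RL1 was itself low in that library, at 0.773 times the mean of the other vehicle libraries. Per 1000 counts of F2R the means were 8.46 ± 2.01 (SD, n = 4) with c-di-GMP and 25.8 ± 6.79 (SD, n = 4) with vehicle, and the groups did not overlap. By this ratio vehicle replicate 3 stood apart, at 16.6, against 27.0, 33.0 and 26.4 in vehicle replicates 1, 2 and 4.

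F2RL3 also has the GC-richest transcript of the 9, at 61.2%, and fold changes in these data followed GC content. Genes of 60 to 65% GC had a median log2 fold change of -0.28 in the 7 libraries. With each library's GC trend taken out, that median was -0.01 and F2RL3 stood at -1.48 ± 0.27. In the 7 libraries 2 of 15647 genes had a log2 fold change as low as that of F2RL3, itself included, and 6 did after GC correction, whereas 274 of 15415 had one as low as its value with all 8 libraries. F2RL3 was known to be among the lowest when the family was picked, so that its rank repeats that choice and supports nothing here. The part of GC content in the remaining difference was not tested further. The bases upstream of the annotated start of F2RL3 are shown because this gene carries the widest difference among the 9, beside those of F3, the most abundant. Both are from RefSeq (GRCh38.p14), 5′ to 3′ on the strand of the gene, and they end at the outermost start in GENCODE v29. Capitals mark the 5-letter core GCGTG that the aryl hydrocarbon receptor is known to bind, in F2RL3, and the AP-1 sequence TGANTCA, in F3. The F2RL3 bases lie at chr19:16888749-16888859 on the plus strand and the F3 bases at chr1:94541801-94542009 on the minus strand.
F2RL3: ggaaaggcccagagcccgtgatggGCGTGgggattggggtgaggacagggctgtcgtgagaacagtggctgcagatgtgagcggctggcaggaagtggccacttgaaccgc
F3: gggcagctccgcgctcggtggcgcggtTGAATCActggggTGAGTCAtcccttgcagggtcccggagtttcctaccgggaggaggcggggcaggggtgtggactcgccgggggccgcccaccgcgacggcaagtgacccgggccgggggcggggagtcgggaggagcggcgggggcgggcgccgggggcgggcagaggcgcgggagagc

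Of the 9 genes, 7 matched an entry of the RefSeq promoter table, which holds 250 bases before and 50 after a start, and F2R and THBD did not. Searched on both strands, where matches of different motifs may overlap, TGANTCA was found 2 times for F3 and 1 time each for F2RL2 and TFPI2, and 7.71% of 35116 windows held it. GCGTG was found 1 time each for F2RL3 and F2RL1, and 36.5% of windows held it. The SP1 letters GGGCGG were found 4 times for F3, 3 times for F2RL1 and 2 times each for TFPI2 and PROCR, against 45.0% of windows with a match. CACCC, the core bound by Krüppel-like factors, was found 3 times each for F3 and TFPI2, 2 times for F2RL3 and 1 time for F2RL2, and 59.9% of windows held it. Of the 7 windows that of F3 was the richest in CpG, with 38 CpG dinucleotides, whereas that of F2RL3 held 11 and that of TFPI 4. The TFPI window, at 187554386 to 187554685, lies inside the gene, whose outermost start in GENCODE v29 is at 187565760. Its values therefore describe an inner start. These matches describe letters and not bound sites.

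The other 3 receptors differed little between treatments. Their genes lie together on chromosome 5 of GRCh38, F2RL2 (ENSG00000164220) at 76615482 to 76623434 on the minus strand, F2R (ENSG00000181104) at 76716043 to 76735781 and F2RL1 (ENSG00000164251) at 76818933 to 76835315 on the plus strand, with 92.6 and 83.2 kb between neighbours. The longest run of bases shared by transcripts of any pair of the 4 receptors was 31 bases, between F2RL1 and F2RL3, so that the genes are not near-identical copies.

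F2R, the classical thrombin receptor, stood at 75.7, 70.7, 70.3 and 69.6 CPM in c-di-GMP replicates 1 to 4, against 67.3, 71.1, 86.1 and 69.3 CPM in vehicle replicates 1 to 4. The groups overlapped, and vehicle replicate 3 was the highest library. Its log2 fold change was -0.04 ± 0.11 with all 8 libraries and 0.04 ± 0.05 with 7, where the interval ran from -3.43% to 10.1%, and scaling all 8 by library totals turned it to 0.13. F2RL1, the trypsin receptor, stood at 209, 208, 204 and 217 CPM with c-di-GMP, against 205, 217, 161 and 203 CPM with vehicle. These groups overlapped as well, and vehicle replicate 3 was the lowest library. F2RL1 had a log2 fold change of 0.09 ± 0.12 with all 8 libraries and 0.00 ± 0.04 with 7, or 0.310% higher (interval -5.22% to 6.17%), and it stood at -0.07 ± 0.03 GC-corrected.

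F2RL2, which in mouse platelets helps thrombin to cut PAR4, was a low transcript. It stood at 5.44, 4.81, 4.80 and 4.67 CPM in c-di-GMP replicates 1 to 4, against 4.59, 4.59, 4.56 and 4.47 CPM in vehicle replicates 1 to 4. The groups did not overlap, but they were separated by less than the spread among the c-di-GMP libraries. Its log2 fold change was 0.11 ± 0.12 with all 8 libraries, 0.11 ± 0.13 with 7 and 0.01 ± 0.13 GC-corrected. Exons of F2RL2 overlap those of IQGAP2 on the opposite strand, and no source used here says that counting kept the strand, but IQGAP2 itself held 8 to 21 counts per library, against 51 to 93 for F2RL2.

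**Figure D2:**
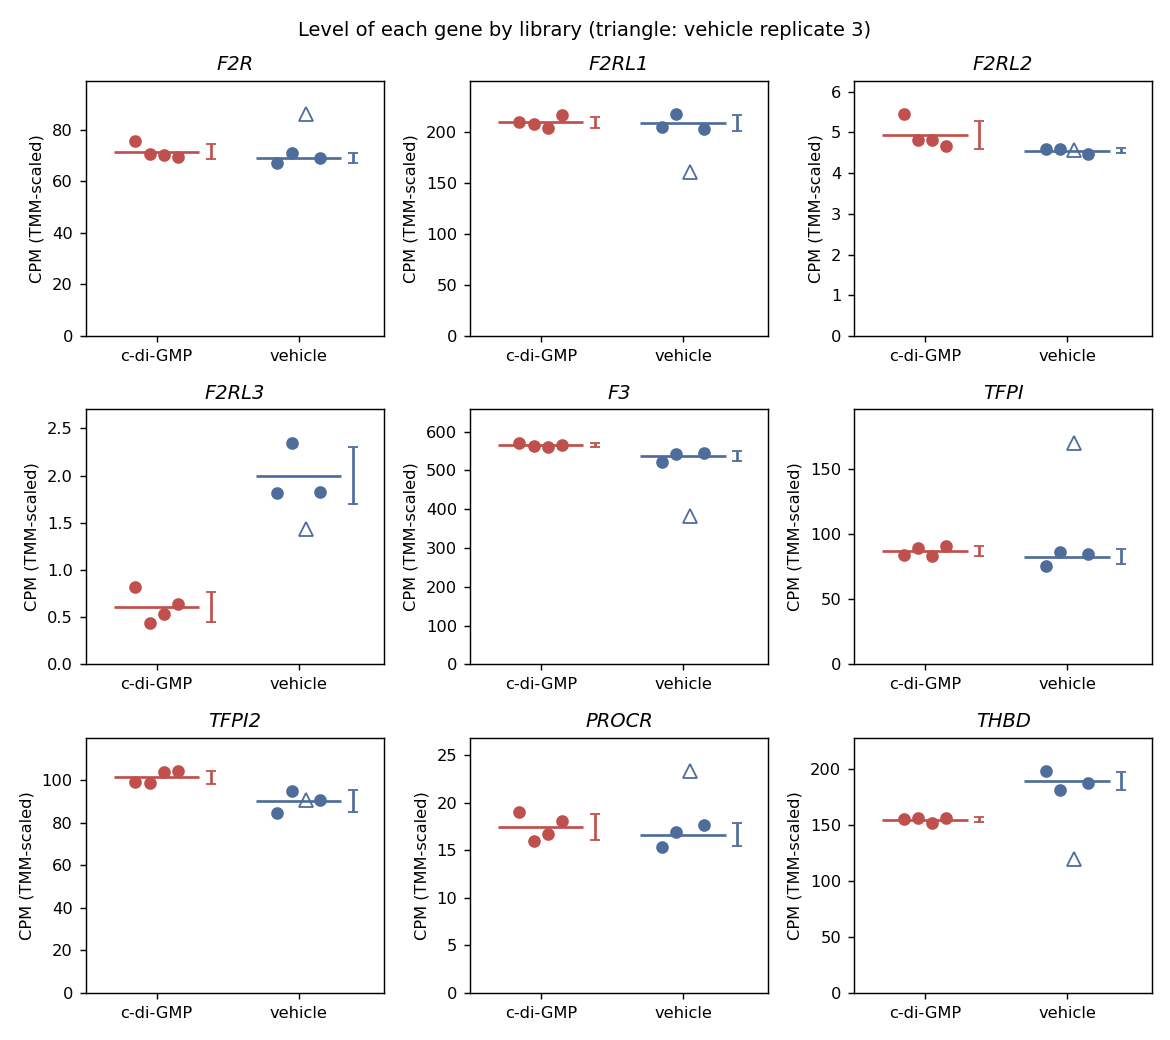
CPM of each gene, TMM-scaled over all 8 libraries, with c-di-GMP libraries in red on the left and vehicle libraries in blue on the right. Lines and bars give the mean and SD of 4 c-di-GMP libraries and of vehicle replicates 1, 2 and 4, and the triangle is vehicle replicate 3. F2RL3 is the gene whose groups lie farthest apart relative to its level, and THBD separates only when the triangle, at 119 CPM, is set aside.

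Tissue factor was high with either treatment and differed by a few percent. F3 (ENSG00000117525, chromosome 1, 94529225 to 94541800, minus strand) stood at 571, 562, 559 and 566 CPM in c-di-GMP replicates 1 to 4, against 521, 542, 384 and 545 CPM in vehicle replicates 1 to 4. All c-di-GMP libraries were above all vehicle libraries, and vehicle replicate 3 was far below the other 3. The log2 fold change was 0.18 ± 0.15 with all 8 libraries and 0.07 ± 0.04 with 7, or 5.08% higher (interval -0.333% to 10.8%). GC-corrected it was -0.01 ± 0.03 and the groups overlapped, so that the sign turned and the separation was lost.

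TFPI, which inhibits factor Xa and the complex of tissue factor with factor VIIa, showed no separation. TFPI (ENSG00000003436, chromosome 2, 187464230 to 187565760, minus strand) stood at 84.0, 89.3, 83.4 and 90.9 CPM with c-di-GMP, against 75.8, 86.4, 170 and 85.1 CPM with vehicle. Vehicle replicate 3 was at 2.06 times the mean of the other vehicle libraries, in a library with a low share of counts from long genes. The log2 fold change was -0.26 ± 0.26 with all 8 libraries and 0.07 ± 0.05 with 7, so that its sign rested on that library, and -0.03 ± 0.04 GC-corrected. An antisense gene that overlaps exons of TFPI held 5 to 20 counts per library, against 1420 to 1902 for TFPI.

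TFPI2, which despite its name is known mainly as an inhibitor of trypsin, plasmin and matrix metalloproteases, was slightly higher with c-di-GMP. TFPI2 (ENSG00000105825, chromosome 7, 93885396 to 93890991, minus strand) stood at 99.1, 98.4, 104 and 104 CPM in c-di-GMP replicates 1 to 4, against 84.4, 94.9, 90.6 and 90.7 CPM in vehicle replicates 1 to 4. The groups did not overlap, and here vehicle replicate 3 lay among the other vehicle libraries. The log2 fold change was 0.17 ± 0.09 with all 8 libraries and 0.17 ± 0.05 with 7, or 12.3% higher (interval 5.36% to 19.8%). GC-corrected it was 0.05 ± 0.04 and the groups overlapped. TFPI2 has the lowest GC content of the 9, at 39.8%, and genes of 35 to 40% GC had a median log2 fold change of 0.13 in the 7 libraries.

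Thrombomodulin was lower with c-di-GMP once vehicle replicate 3 was set aside. THBD (ENSG00000178726, chromosome 20, 23045633 to 23049741, minus strand) has 1 exon, and it stood at 155, 156, 151 and 156 CPM in c-di-GMP replicates 1 to 4, against 198, 181, 119 and 188 CPM in vehicle replicates 1 to 4. Vehicle replicates 1, 2 and 4 were above all c-di-GMP libraries and vehicle replicate 3 was below all of them, so that the groups of 4 overlapped. The log2 fold change was -0.15 ± 0.17 with all 8 libraries and -0.29 ± 0.04 with 7, a change of -18.3% with an interval from -22.9% to -13.5%. It was -0.20 ± 0.03 GC-corrected, and the groups of 7 did not overlap either way.

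As a ratio to tissue factor THBD separated all 8 libraries, but as a ratio with PROCR it did not. Per 100 counts of F3 there were 27.1, 27.8, 27.0 and 27.5 counts of THBD in c-di-GMP replicates 1 to 4, against 37.9, 33.5, 31.1 and 34.4 in vehicle replicates 1 to 4. In this ratio vehicle replicate 3 was the lowest vehicle library but lay above every c-di-GMP library. The means were 27.4 ± 0.364 (SD, n = 4) with c-di-GMP and 34.2 ± 2.83 (SD, n = 4) with vehicle. F3 was itself low in vehicle replicate 3, at 0.716 times the mean of the other vehicle libraries, beside 0.632 times for THBD. Per 100 counts of THBD, PROCR had 10.2 to 12.3 counts with c-di-GMP and 7.78 to 9.42 in vehicle replicates 1, 2 and 4. It had 19.6 in vehicle replicate 3, so that this ratio did not separate all 8 libraries. THBD is GC-richer than F3, at 54.8% against 43.7%, and genes of 50 to 55% GC had a median log2 fold change of -0.07 in the 7 libraries, against 0.10 for genes of 40 to 45%.

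Since thrombomodulin is best known from endothelial cells, endothelial markers were examined beside it. Of 8 such markers 5 were in the count table, with a summed level of 155 to 164 CPM with c-di-GMP. The sum was 169 to 184 CPM in vehicle replicates 1, 2 and 4 and 143 CPM in vehicle replicate 3. These are again CPM by library totals, and the place of vehicle replicate 3 depends on that choice. VWF, TEK and CLDN5 were not listed. Most of the sum was ESAM, an adhesion molecule, at 136 to 145 CPM with c-di-GMP and 150 to 165 CPM in vehicle replicates 1, 2 and 4. By edgeR with adjustment over all genes of the 7 libraries ESAM fell by 0.14 ± 0.05 on the log2 scale (adjusted p = 0.0209), and GC-corrected it stood at -0.06 (adjusted p = 0.248). TIE1, an endothelial receptor kinase, stood at 0.991 to 1.58 CPM with c-di-GMP and 2.16 to 2.65 CPM in vehicle replicates 1, 2 and 4. With the 7 libraries TIE1 fell by 0.81 ± 0.22 (edgeR adjusted p = 0.00708), and GC-corrected it stood at -0.58 (adjusted p = 0.0786). KDR, a receptor of VEGF, stood at 8.20 to 8.67 CPM with c-di-GMP and 7.36 to 7.82 CPM in those vehicle libraries, at 0.16 ± 0.10 (edgeR adjusted p = 0.264). The adhesion molecules CDH5 and PECAM1 stood at 0.170 to 1.94 CPM and 8.48 to 10.3 CPM with c-di-GMP, against 0.111 to 0.393 CPM and 8.65 to 9.90 CPM in the same vehicle libraries. By library totals vehicle replicate 3 was below every c-di-GMP library for ESAM, TIE1 and KDR, at 128, 0.296 and 2.79 CPM. It was above both ranges for PECAM1 and within both for CDH5. With vehicle replicate 3 included the groups therefore overlapped on this scale for ESAM and TIE1. With all 8 libraries edgeR called 0 genes. Every library is labelled MDA-MB-231, so that no endothelial cells were part of the design. Bulk levels do not show which cells of the line held these transcripts. The part of these markers in the THBD difference was not tested.

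PROCR, the endothelial protein C receptor, showed no separation. PROCR (ENSG00000101000, chromosome 20, 35172073 to 35216240, plus strand) stood at 19.0, 15.96, 16.8 and 18.1 CPM with c-di-GMP, against 15.4, 17.0, 23.3 and 17.7 CPM with vehicle. The groups overlapped, and vehicle replicate 3 was the highest library. The log2 fold change was -0.07 ± 0.15 with all 8 libraries, 0.06 ± 0.08 with 7 (interval -6.35% to 16.4%) and 0.12 ± 0.08 GC-corrected. Scaling all 8 libraries by their totals turned it to 0.11. Antisense or opposite genes whose exons overlap F2R, TFPI2 and PROCR in the annotation were not in the count table.

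Over the 9 genes, vehicle replicate 3 lay outside the range of the other 3 vehicle libraries for 7, above it for F2R, TFPI and PROCR and below it for F2RL1, F2RL3, F3 and THBD. With all 8 libraries the levels of the groups did not overlap for 4 of the 9 (F2RL2, F3 and TFPI2 higher, F2RL3 lower), against 14.2% of all genes tested, 6.93% higher and 7.29% lower. With 7 libraries this held for 5 of the 9, with THBD added, against 35.7% of all genes, 17.3% higher and 18.3% lower. GC-corrected it held for 2, F2RL3 and THBD, both lower, against 23.6% of all genes, 12.9% higher and 10.7% lower. By edgeR's quasi-likelihood test with adjustment over all genes, 0 of the 9 were past the threshold with all 8 libraries, where it called 0.0% of genes, with 960 at an unadjusted p under 0.05, and where DESeq2 called 134 genes and limma-voom 0. With 7 libraries 3 of the 9 were past it (TFPI2 higher, THBD and F2RL3 lower), against 29.6% of all genes, and GC-corrected THBD and F2RL3 were, against 15.2%. Because the family was picked with this contrast known, nothing is drawn from these counts. The median log2 fold change of the 9 was -0.04 with all 8 libraries, 0.06 with 7 and -0.03 GC-corrected, beside -0.05, 0.00 and -0.00 over all genes tested.

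**Figure D3:**
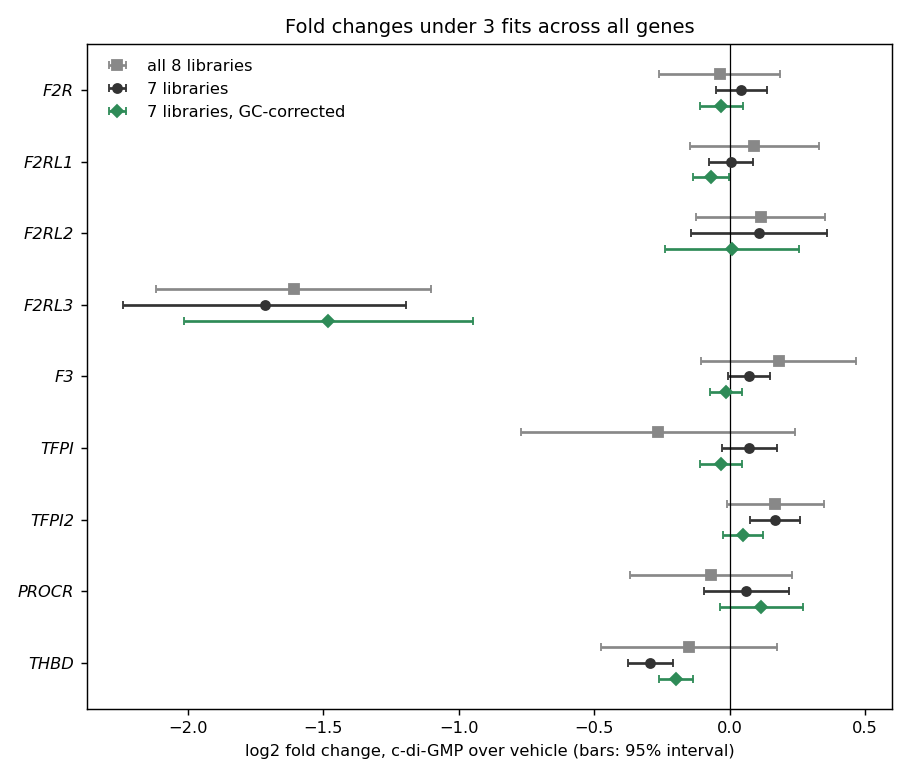
Log2 fold change of c-di-GMP over vehicle for each gene with its approximate 95% interval, from the fit with all 8 libraries (squares), with 7 libraries (circles) and with 7 libraries GC-corrected (diamonds). F2RL3 stands at -1.48 to -1.72 in all 3 fits, where its intervals leave out 0. So do those of THBD with 7 libraries, with and without GC correction, of TFPI2 with 7 libraries and of F2RL1 GC-corrected. The genes were picked with this contrast known, so that the intervals are no test.

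**Figure D4:**
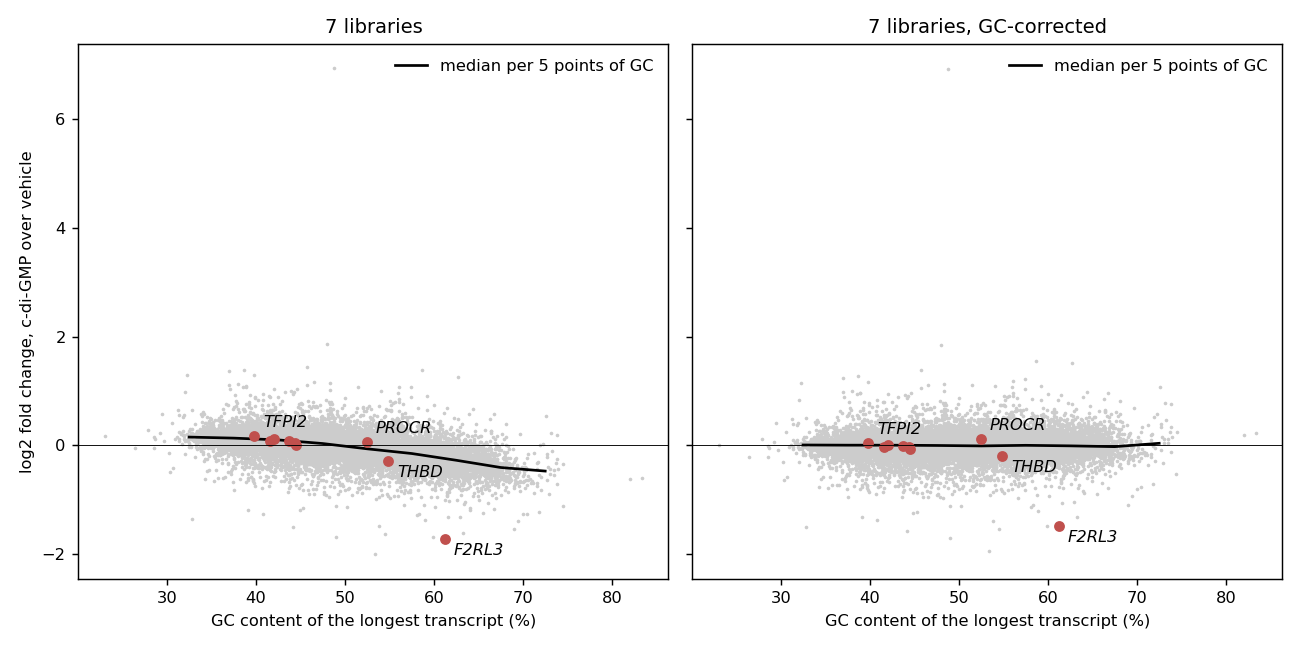
Log2 fold change in the 7 libraries against GC content of the longest transcript for all genes tested (grey), before (left) and after (right) GC correction, with the median per 5 points of GC as a line and the 9 genes in red. TFPI2 lies close to the trend line before correction, whereas F2RL3 lies far below it in both panels.

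The wider pathway was described from 7 lists with 130 genes, of which 91 could be tested with the 7 libraries, and 12 of these rose and 27 fell. Across all genes 13.5% rose and 16.2% fell. With the GC trend removed 8 of the 91 rose and 10 fell, where 8.58% of all genes rose and 6.62% fell, and with all 8 libraries edgeR called 0 of the 90 tested. The counts of each list below stand beside these shares of all genes, and nothing is drawn from them alone. Adjusted p-values of single genes below come from edgeR fitted to the 7 libraries, adjusted by Benjamini-Hochberg over all genes, and the named genes had adjusted p of 0.623 to 0.959 with all 8. RHOA, VKORC1L1, THBS1, ATP11A and PDIA3 had the opposite sign with all 8 libraries, at -0.11, -0.08, 0.08, 0.10 and -0.64. With all 8 the log2 fold change was nearer 0 by more than 1.5 times for VEGFA, PLCB3, FLNA, ITGA3 and FOSL1, at -0.25, -0.12, -0.06, -0.06 and -0.03. It was farther from 0 by more than 1.5 times for KLF2, F12, JUNB, MMP1, KLF4, KLF6 and TMED2, at -1.08, -1.003, -0.67, -0.63, -0.32, 0.24 and 0.43.

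Of the proteases that can cut the receptors, 6 of 21 were tested, 0 rose and 2 fell. MMP1, a collagenase known to cut and activate PAR1 on breast cancer cells, fell to 313 ± 10.9 CPM (SD, n = 4) with c-di-GMP, against 397 ± 3.21 CPM (SD, n = 3) with vehicle. Its log2 fold change was -0.34 ± 0.04 (adjusted p = 1.36e-06) and -0.43 ± 0.03 GC-corrected (adjusted p = 3.48e-09), and vehicle replicate 3 stood still higher, at 703 CPM on the scale of all 8 libraries. ST14, which encodes matriptase, a protease that cuts PAR2, fell by 0.53 ± 0.16 on the log2 scale (adjusted p = 0.0133), missed the threshold GC-corrected at -0.25 ± 0.15, and lost the call without vehicle replicate 1. The list's median log2 fold change was 0.03, beside 0.00 over all genes.

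Of the transcription factors known to act on the F3 or THBD promoter, 10 of 11 were tested, and 2 rose and 3 fell. KLF2, a Krüppel-like factor that induces THBD in endothelial cells, fell to 15.3 ± 1.56 CPM (SD, n = 4) with c-di-GMP, against 24.6 ± 2.33 CPM (SD, n = 3) with vehicle. Its log2 fold change was -0.68 ± 0.08 (adjusted p = 1.96e-06) and -0.33 ± 0.07 GC-corrected (adjusted p = 0.00236), and vehicle replicate 3 was the highest library, at 53.5 CPM on the scale of all 8. KLF4, which acts on THBD in the same way, fell by 0.20 ± 0.07 (adjusted p = 0.0277) and stood at -0.10 ± 0.06 GC-corrected, past the threshold no longer. JUNB, a subunit of AP-1, fell by 0.44 ± 0.06 (adjusted p = 1.57e-05) and stood at -0.09 ± 0.05 GC-corrected, and KLF6 rose by 0.12 ± 0.04 (adjusted p = 0.0250) and stood at 0.06 ± 0.03. GC-corrected, KLF2 was the sole member of this list past the threshold. The calls of KLF4 and KLF6 were lost when single libraries were left out, in 3 and 4 of 7 fits. The list's median log2 fold change was -0.00, beside 0.00 over all genes.

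Of 21 genes known to be induced by thrombin, all tested, 1 rose and 6 fell with 7 libraries, and 2 rose and 6 fell GC-corrected. VEGFA, the angiogenic growth factor, fell to 394 ± 6.26 CPM (SD, n = 4) with c-di-GMP, against 576 ± 27.2 CPM (SD, n = 3) with vehicle, by 0.55 ± 0.04 (adjusted p = 4.38e-09) and by 0.45 ± 0.03 GC-corrected. PTGS2, the inducible cyclooxygenase, fell by 0.35 ± 0.10 (adjusted p = 0.00797) and by 0.48 ± 0.10 GC-corrected, and THBS1, the matrix protein thrombospondin, by 0.22 ± 0.04 (adjusted p = 5.96e-04) and by 0.28 ± 0.04 GC-corrected. FOSL1, an AP-1 subunit, fell by 0.21 ± 0.04 (adjusted p = 6.62e-04) and stood at -0.00 ± 0.03 GC-corrected. The list's median was -0.07, and -0.00 GC-corrected, beside 0.00 and -0.00 over all genes, and most of these genes respond to many other signals.

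The transducers of the receptors were called in both directions before GC correction only. Of 25 tested genes of signalling and trafficking 4 rose and 9 fell, where 13.5% of all genes rose and 16.2% fell. GC-corrected 3 rose and 0 fell, where 8.58% of all genes rose and 6.62% fell. RHOA, the small GTPase that the receptors switch on through G proteins, rose to 613 ± 20.6 CPM (SD, n = 4) with c-di-GMP, against 530.3 ± 13.02 CPM (SD, n = 3) with vehicle, by 0.21 ± 0.04 (adjusted p = 4.53e-04) and by 0.18 ± 0.03 GC-corrected. TMED2, a cargo receptor that takes part in carrying PAR2 to the surface, rose by 0.26 ± 0.04 (adjusted p = 1.12e-04) and by 0.15 ± 0.03 GC-corrected. The phospholipase PLCB3 and the RHOA exchange factor ARHGEF1 fell by 0.35 ± 0.05 and 0.35 ± 0.05 (adjusted p = 1.36e-05 and 6.17e-06) and stood at -0.08 ± 0.03 and -0.04 ± 0.03 GC-corrected. The list's median was 0.00, beside 0.00 over all genes.

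Of the genes linked to tissue factor activity at the membrane, 16 of 17 were tested, with 3 higher and 4 lower, and 1 higher and 1 lower GC-corrected. ATP11A, a flippase that keeps phosphatidylserine inside the cell, fell by 0.27 ± 0.05 (adjusted p = 2.36e-04) and by 0.24 ± 0.04 GC-corrected. FLNA, a filamin that binds the tail of tissue factor, fell by 0.36 ± 0.05 (adjusted p = 1.41e-05), ITGA3, an integrin chain, by 0.29 ± 0.05 (adjusted p = 4.20e-05), and the thiol isomerase PDIA3 rose by 0.17 ± 0.04 (adjusted p = 0.00375). GC-corrected these 3 stood at -0.09 ± 0.04, -0.05 ± 0.03 and 0.08 ± 0.03 and missed the threshold. The list's median was -0.01, beside 0.00 over all genes.

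Of the inhibitors of coagulation and the genes of the vitamin K cycle, 11 of 16 were tested, and 2 rose and 2 fell, or 2 rose and 1 fell GC-corrected. ANXA5, an annexin that covers phosphatidylserine, rose by 0.29 ± 0.05 (adjusted p = 8.89e-05) and by 0.24 ± 0.04 GC-corrected. GAS6, a vitamin K-dependent ligand of AXL, fell by 0.25 ± 0.05 (adjusted p = 4.46e-04) and stood at 0.01 ± 0.03 GC-corrected, and VKORC1L1, a vitamin K reductase, rose by 0.18 ± 0.05 (adjusted p = 0.00502) and stood at 0.10 ± 0.04. The list's median was 0.09, beside 0.00 over all genes.

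Of 16 coagulation factors 2 were tested. The others, among them F2, F7 and F10, were not in the count table. The lowest total of a gene in that table was 55 counts, so that absence does not mean no transcript. F12, the contact factor XII, was low, at 2.76 ± 0.398 CPM (SD, n = 4) with c-di-GMP and 3.83 ± 0.542 CPM (SD, n = 3) with vehicle. It fell by 0.48 ± 0.17 (adjusted p = 0.0371) and stood at -0.14 ± 0.17 GC-corrected. It kept the call in 3 of 7 fits that left out a library. Of the 22 genes named from the lists, 18 kept the call in all 7 such fits and 9 were past the threshold GC-corrected.

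**Figure D5:**
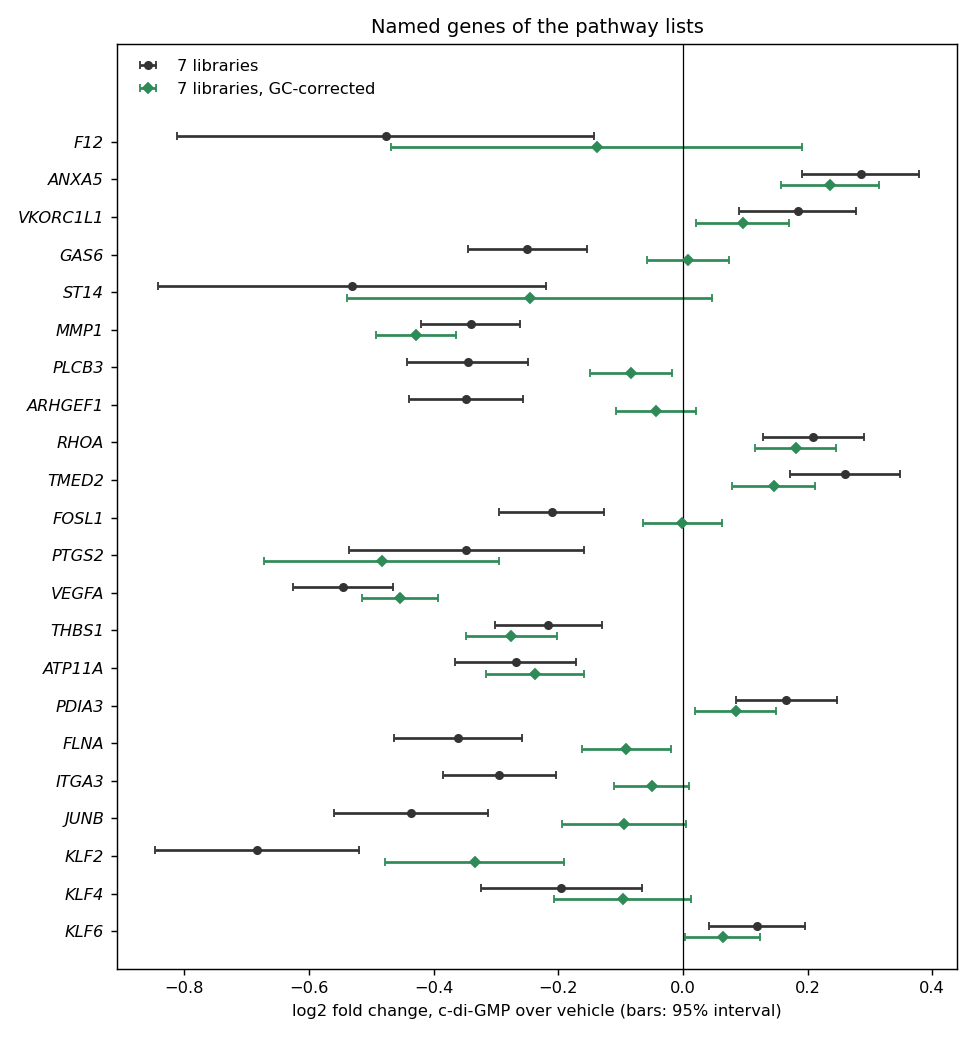
Log2 fold change of c-di-GMP over vehicle in the 7 libraries for the 22 named genes of the lists, with approximate 95% intervals, before (circles) and after (diamonds) GC correction. MMP1, VEGFA, PTGS2, KLF2 and THBS1 stay to the left of 0 in both fits, whereas PLCB3, ARHGEF1, FLNA and FOSL1 move towards 0.

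Likeness over the 8 libraries was described by Pearson's r of log2 CPM among 12228 protein-coding genes with a mean of at least 1 CPM. The genes most like F2RL3 were ZNF467, TLDC1 and DTX3, at r = 0.95, 0.95 and 0.94, with r = 0.95, 0.94 and 0.94 over the 7 libraries without vehicle replicate 3. For F3 they were ZNF841, LSM14A and SPIN1, at r = 1.00 each over 8 libraries and 0.98, 0.98 and 0.99 over 7, and for F2R they were MCPH1, CYLD and VMA21, at 1.00, 0.99 and 0.99 over 8 and 0.98, 0.97 and 0.94 over 7. These points share their libraries and treatment, so that the values carry no test.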

How the data were processed

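Total RNA was extracted with TRIzol and libraries were made with a NEBNext Ultra kit, per the labels' protocols. The submitters' processing notes name DESeq2 1.20.0, featureCounts 1.5.0-p3, HISAT2 2.0.5, CASAVA 1.8 and fastp, and a mouse build, but all 16383 genes of the count table have their human coordinates in GENCODE v29 (GRCh38). The authors deposited raw read counts per gene and, in another table, FPKM, and the roles of the tools are not given in the sources used here. Of 22 names turned into dates, symbols were restored from the gene identifiers.

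R 4.3.3 and edgeR 4.0.16 were used for the quasi-likelihood fit, which had treatment as its single term and TMM scaling. Genes entered it by filterByExpr with at least 10 counts and a total of at least 15, and an adjusted p of 0.05 was the threshold. Standard errors are the fold change over the root of F, and 95% intervals are approximate. For the GC correction, the deviation of a library from the gene mean was smoothed over transcript GC content (lowess, span 0.3) and used as an offset. The groups' replicate numbers were not used to pair libraries in this fit. The fit was also run on simulated counts that held no outlying library and no GC trend. That run therefore says nothing about how the fit deals with either.

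The 9 genes, the lists and the use of 7 libraries were chosen with earlier results of these data known. Named were all 9, of each list up to 4 genes of smallest p past the threshold, and 3 genes most like F2RL3, F2R and F3. A gene of the lists that the rule would name is not reported here. Alternatives used DESeq2 1.42.0 and limma 3.58.1.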

Additional observations from a re-analysis of the deposited data

Results flagged for a closer look

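In 40 groups of 4 libraries examined, 2 values lay far from the other 3 of their group by Dixon's criterion, which chance alone meets in about 1 of 20 groups. Both belonged to vehicle replicate 3, on the scale of all 8 libraries: F3 at 384 CPM, against 521 to 545 CPM in vehicle replicates 1, 2 and 4, and TFPI at 170 CPM, against 75.8 to 86.4 CPM.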

How the results depend on the processing

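With all 8 libraries edgeR called 0 genes, DESeq2 called 134, and leaving out single libraries gave 0 to 4633, where 4633 came without vehicle replicate 3 and 0 without any other. With 7 libraries 4633 genes passed (2106 higher, 2527 lower), 3440 to 4826 with single libraries left out, and 2378 after GC correction (1342 higher, 1036 lower). Of the pathway genes 39 passed, 29 to 44 with single libraries left out, and 18 after GC correction. Ranges of neighbouring genes in the order of levels did not overlap for 6 of 8 pairs, and for 6 to 7 with single libraries left out. CPM per kilobase over 7 libraries, a choice made after seeing the data, gave 7.

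Replicate numbers are shared by the groups, but same-numbered libraries deviated with r = 0.015, -0.0088 and 0.0055 for replicates 1, 2 and 4, and replicate 1 alone correlated best with its own number. These values show no pairing, but they cannot exclude that same-numbered libraries shared a preparation, and no label states a pairing. With the replicate block 0 genes passed with all 8 libraries, 4093 with 7 and 1599 with 7 and GC correction, and of the pathway genes 33 and 12. KLF4 and KLF6 lost the call under the block with 7 libraries, at edgeR's adjusted p = 0.0572 and 0.0763.

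F2RL3 kept a negative log2 fold change in all alternatives, from -1.89 to -0.42 with 7 libraries and from -1.78 to -0.38 with all 8. The values nearest 0, -0.42 and -0.38, were on the log2(FPKM + 1) scale, where the pseudocount exceeds its level, and log2(FPKM + 0.1) gave -1.29 and -1.19. THBD ranged from -0.32 to -0.18 with 7 libraries and from -0.29 to -0.05 with all 8, and TFPI2 from 0.03 to 0.21 and from 0.14 to 0.31. The ranges with all 8 include fits that left out single libraries, and the -0.29 of THBD came without vehicle replicate 3. F2R and PROCR took either sign with all 8 libraries, and F2R, F2RL1, F3 and TFPI with 7. TFPI was negative in the fits that kept vehicle replicate 3 and stood at 0.07 only without it. Library totals in place of TMM moved the median log2 fold change of all genes with all 8 libraries to 0.08, against -0.05. F2RL3 had 8 to 45 counts per library, so that counting error limits the precision of its value.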
